A study of Homo sapiens with 2 samples.

Results

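The methionine sulfoxide reductase family was described in H460, an established human line of large-cell lung carcinoma, from RNA-seq gene counts. The family has 4 genes, MSRB3, MSRA, MSRB1 and MSRB2. MSRB3 was selected on its counts, which were far lower in the PKP2 library than in the vector library of these same data, and the other 3 were taken as the rest of the family. All 4 were among the 22965 genes with counts. In the study's comparison, 1 library stands for cells with the pSin-puro vector alone (genotype control) and 1 for cells that received PKP2 in pSin-puro (genotype overexpression of PKP2). PKP2 encodes plakophilin 2, a protein of desmosomes. Both cultures were at passage 5, were grown in DMEM with serum and gave total RNA. The question was which genes lie downstream of PKP2. With 1 library per group no spread between cultures can be measured and no test exists, so every difference below compares these 2 libraries. Fewer transcripts per cell and fewer cells with the transcript cannot be told apart in such bulk RNA.

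Methionine residues in proteins are oxidised to methionine sulfoxide by reactive oxygen species, and methionine sulfoxide reductases turn them back. The sulfoxide has an S and an R form. MSRA reduces the S form, and the MSRB enzymes reduce the R form. MSRB1 is a selenoprotein of the cytosol and nucleus, MSRB2 is mitochondrial, and MSRB3 has splice forms that go to the endoplasmic reticulum or to mitochondria. Thioredoxin, kept reduced by thioredoxin reductase, is the usual electron donor. Mutations of MSRB3 cause an inherited deafness (DFNB74).

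The vector library held 23513304 counts and the PKP2 library 20319137. PKP2 itself went from 7.63 to 66.0 CPM (counts scaled to library size), in the direction of the labels. Of the epithelial keratin genes, KRT8 had 16537 counts with vector and 9369 with PKP2, and KRT18 had 5954 and 3795. KRT19 had 6501 and 11645, or 2.11-fold more with PKP2 in CPM. EPCAM had 28 and 16. In the annotation, exons of KRT8 and KRT18 overlap on opposite strands. Of the markers of other cells, CD14 had 90 counts with vector and 23 with PKP2, COL1A1 132 and 48, PDGFRB 111 and 208, and VWF 2 and 0. CDH1 and 8 further markers on these lists were not analysed here. The part of other cells in the MSRB3 result was not tested.

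MSRB3 (ENSG00000174099, chromosome 12) had 1088 counts with vector and 150 with PKP2. These are 45.9 CPM (95% counting interval 43.2 to 48.7) and 7.45 CPM (6.30 to 8.74). The vector library was the high one, and the intervals lay far apart. MSRB3 was thus 6.16-fold lower with PKP2 (interval 5.19 to 7.35), and the log2 ratio of PKP2 over vector was -2.62 (-2.88 to -2.37). These values chose the gene and are given as a description. Intervals cover counting error only, because they are computed from the counts and no spread between cultures can be measured. Reads were not tied to single molecules by identifiers. How far repeat reads of the same molecule widen the counting error was not tested.

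As background, 15991 genes averaged 10 counts or more over the libraries and are called counted genes here. At least 2-fold lower with PKP2 were 4.61% of them, and at least 2-fold higher 2.47%. All 4 reductase genes were counted genes. The level of MSRB3 lay above that of 70.1% of the counted genes with vector and of 34.3% with PKP2. The ratio of MSRB3 was the 53rd lowest of these genes. Of the 11637 genes that averaged 100 counts or more, it was the 11th lowest. The 3015 counted genes whose mean count was within 1.5-fold of that of MSRB3 included 37 at least 2-fold lower, and MSRB3 had the lowest ratio of them. Such low places are part of how MSRB3 was chosen and serve as description only.

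**Figure D1:**
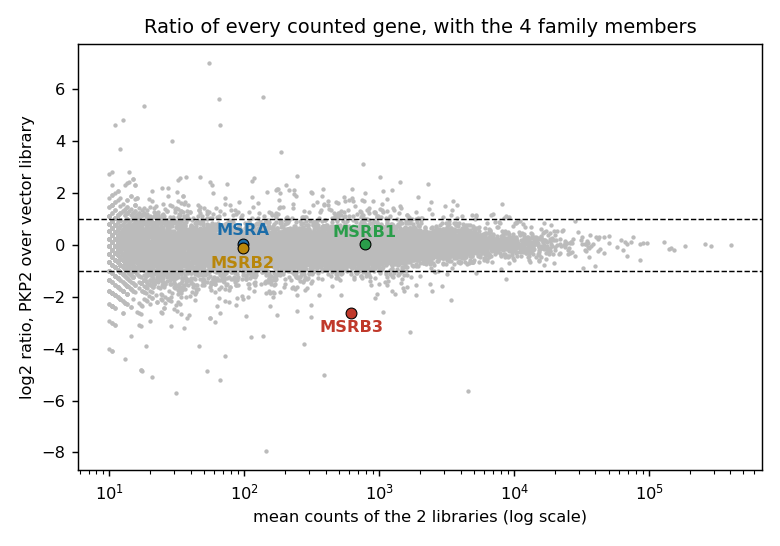
Log2 ratio of the PKP2 over the vector library (vertical axis) against mean counts of the 2 libraries (horizontal axis, log scale) for counted genes above 0 in both libraries; grey points are genes, coloured points the 4 family members, and dashed lines mark 2-fold. MSRB3 lies at -2.62, while MSRA, MSRB1 and MSRB2 lie between -0.12 and 0.06.

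The genes nearest to MSRB3 in ratio, among those averaging 100 counts or more, have varied known roles. Just below it were STRA6 at -2.78, which encodes the vitamin A transporter of the cell surface, NUPR1 at -2.75, a stress-induced chromatin protein, and JRK at -2.68. Just above it were GJA5 at -2.60, which encodes the gap junction protein connexin 40, OLFML3 at -2.54, a secreted olfactomedin-like protein, and ZNF589 at -2.37, a zinc finger protein. The farthest of these ratios from that of MSRB3 was that of ZNF589, with a difference of 0.252. Likeness here rests on 2 libraries alone.

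The other 3 reductase genes were within 2-fold, as 92.9% of counted genes were, and each counting interval took in 0. MSRB1 (ENSG00000198736, chromosome 16) had 837 counts with vector and 727 with PKP2, or 35.3 and 36.1 CPM. Its ratio was 0.03 (interval -0.11 to 0.18), so a difference above 1.13-fold in either direction lies outside the counting interval. MSRA (ENSG00000175806, chromosome 8), the sole S-form enzyme, had 103 and 91 counts, or 4.34 and 4.52 CPM, a ratio of 0.06 (-0.37 to 0.48). MSRB2 (ENSG00000148450, chromosome 10) had 109 and 85 counts, or 4.59 and 4.22 CPM, a ratio of -0.12 (-0.55 to 0.30). The low counts of MSRA and MSRB2 leave room for differences of up to 1.39-fold and 1.46-fold.

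**Figure D2:**
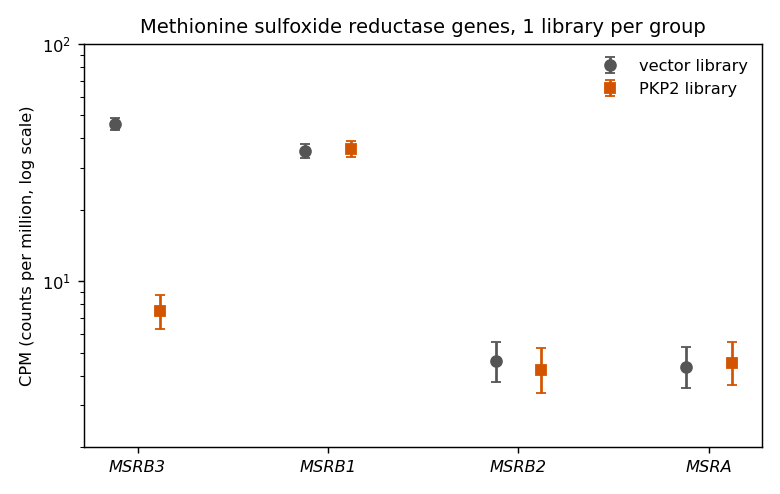
Level of each family member in CPM (log scale) in the vector library (grey circles) and the PKP2 library (orange squares); bars are 95% Poisson intervals of the count and there is 1 library per group. The MSRB3 points stand apart at 45.9 and 7.45 CPM, and the intervals of the 2 libraries overlap for MSRB1, MSRB2 and MSRA.

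The 6 pairs of family members were set against each other by the difference of their log2 ratios. MSRB3 lay below MSRB1 by a difference of 2.66 (counting interval 2.37 to 2.95), below MSRA by 2.68 (2.18 to 3.17) and below MSRB2 by 2.50 (1.999 to 2.995). As MSRB3 was chosen for its low ratio, these 3 differences are descriptions. Among the other 3 genes the differences were 0.02 for MSRA over MSRB1 (-0.42 to 0.47), 0.18 for MSRA over MSRB2 (-0.43 to 0.79) and 0.16 for MSRB1 over MSRB2 (-0.29 to 0.61). No difference among them was detectable at this depth.

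Per length of transcript, MSRB1 was the most abundant family member in both libraries. With vector the levels in CPM per kilobase were 24.8 for MSRB1, 10.7 for MSRB3, 2.83 for MSRA and 2.55 for MSRB2. The intervals of MSRA (2.31 to 3.43) and MSRB2 (2.09 to 3.07) overlapped, and those of MSRB1 and MSRB3 did not overlap any other. In the PKP2 library the levels per kilobase were 25.4 for MSRB1, 2.94 for MSRA, 2.34 for MSRB2 and 1.74 for MSRB3. MSRB3 thus went from the second to the last place, although its interval (1.47 to 2.04) overlapped that of MSRB2 (1.87 to 2.89). The lengths are those of 1 transcript per gene, from 1423 bases for MSRB1 to 4290 for MSRB3, and the files do not tell splice forms apart. The endoplasmic reticulum and mitochondrial forms of MSRB3 could therefore not be compared.

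Summed over the 4 genes, the family had 2137 counts with vector and 1053 with PKP2, or 90.1 and 52.3 CPM, a ratio of -0.78 (interval -0.89 to -0.68). Without MSRB3 the sum was 1049 and 903 counts, or 44.2 and 44.8 CPM, a ratio of 0.02 (-0.11 to 0.15). MSRB3 held 50.9% of the family's counts in the vector library (exact binomial 95% interval 48.8 to 53.1) and 14.2% in the PKP2 library (12.2 to 16.5). The share of MSRB1 was 39.2% in the vector library (37.1 to 41.3) and 69.0% in the PKP2 library (66.2 to 71.8). The higher share of MSRB1 stands beside a level of MSRB1 that differed by less than counting error. Per length, MSRB3 made up 26.2% of the family with vector and 5.36% with PKP2. The sum over all 4 genes and every share include the counts that chose MSRB3, and are descriptions only.

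The ratio fell off with transcript GC content over the 11610 genes that averaged 100 counts or more and had a known transcript (Spearman's rho -0.61, computed across genes, not across independent samples). MSRB3 has a GC content of 44.0%, under the median of 48.0% of these genes, and a curve fitted to the trend stands at 0.11 there. Its ratio relative to that curve was -2.73. The 100 genes nearest to MSRB3 in GC content and length had ratios from -1.33 to 1.15 (median 0.16), all above that of MSRB3. Because MSRB3 was chosen for its low ratio, its place below these genes is a description only. MSRB1 and MSRA have a higher GC content, 58.7% and 54.4%, and their ratios relative to the curve were 0.30 and 0.19. For MSRB1 this is above its counting interval, so whether its level differed depends on the GC correction. MSRB2, at 48.8% GC, kept a ratio of -0.13 relative to the curve.

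**Figure D3:**
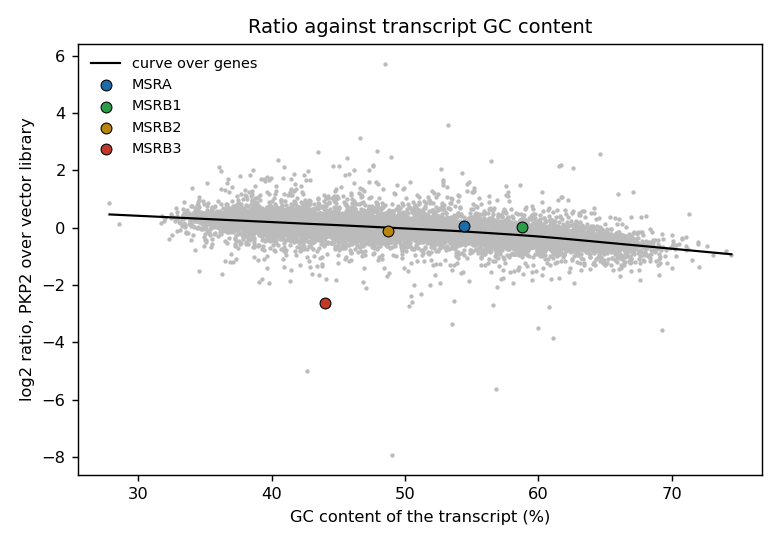
Log2 ratio of the PKP2 over the vector library (vertical axis) against transcript GC content in percent (horizontal axis); grey points are genes averaging 100 counts or more, the line is a lowess curve over them, and coloured points are the family members. MSRB3 lies far under the curve at 44.0% GC, and MSRB1 lies 0.30 above it at 58.7%.

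Sequence shared between genes was looked up for the family members, against the genes in the files only. Of the 31-base stretches of their transcripts, MSRB3 shares 3.32% with other genes in the files, MSRB2 0.83%, MSRA 0.53% and MSRB1 0%. How far shared reads enter the counts was not tested. No gene in the files overlaps an exon of a member. A long non-coding RNA on the opposite strand (ENSG00000250748) overlaps an exon of MSRB3 in the annotation and was not analysed here. Whether the counting used strand is not given in the sources used here, so its reads, if any, cannot be told from those of MSRB3.

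The counted genes nearest to MSRB3 on chromosome 12 were within 2-fold, as 92.9% of all counted genes were. As MSRB3 was chosen for its low ratio, their distance from it is a description only. On one side, LEMD3, a protein of the inner nuclear membrane that restrains SMAD signalling, had 844 and 825 counts, a ratio of 0.20, and TBC1D30, which encodes a TBC-domain Rab GTPase-activating protein, had 417 and 380 counts, a ratio of 0.10. On the other, LLPH had 1712 and 1610 counts, a ratio of 0.15. The genes closest to MSRB3 in the order of starts had few counts. HMGA2, an architectural chromatin protein, had 4 and 3 counts, LINC02454 5 and 0, and ENSG00000276853 3 and 7. The neighbours were taken in the order of starts of the genes in the files, 3 on either side. The counted neighbours of MSRB1 were all within 2-fold, again as most counted genes were, and lay on both sides of 0. The meiotic gene MEIOB, with 148 and 227 counts, was at 0.85 (interval 0.55 to 1.16), and the heparan sulfate sulfotransferase gene HS3ST6, with only 21 and 27 counts, at 0.60 (-0.28 to 1.49), or 1.41 relative to the trend of the ratio with GC content described above. The respiratory chain gene NDUFB10 was at -0.18, the ribosomal protein gene RPS2 at -0.33 and ENSG00000255513, which overlaps RPS2, at 0.07. Relative to the same trend, MEIOB was at 0.71, NDUFB10 at 0.12, RPS2 at -0.06 and ENSG00000255513 at 0.10.

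The sequence before the start of the MSRB genes is shown because MSRB3 is the family member whose count differed. RefSeq windows (build GRCh38.p14) matched all 3 MSRB genes and are printed 5′ to 3′ on the strand of the gene, from 250 bases before the RefSeq start up to the first base before any transcript of GENCODE 29, which uses the same build. Capitals mark GC boxes (GGGCGG or CCGCCC), which the factor SP1 binds, and the E-boxes CAGGTG or CACCTG, which ZEB1 and SNAI1 bind. The motifs were searched on both strands and do not overlap each other here.
MSRB3, chr12:65278433-65278642, plus strand: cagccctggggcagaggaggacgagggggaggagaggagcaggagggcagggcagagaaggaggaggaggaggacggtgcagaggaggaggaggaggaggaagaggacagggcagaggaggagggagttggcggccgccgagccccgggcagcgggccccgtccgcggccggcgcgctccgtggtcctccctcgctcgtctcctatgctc
MSRB1, chr16:1943327-1943449, minus strand: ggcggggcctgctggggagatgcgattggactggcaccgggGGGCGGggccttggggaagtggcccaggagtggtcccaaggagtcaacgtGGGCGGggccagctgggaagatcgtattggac
MSRB2, chr10:23095329-23095505, plus strand: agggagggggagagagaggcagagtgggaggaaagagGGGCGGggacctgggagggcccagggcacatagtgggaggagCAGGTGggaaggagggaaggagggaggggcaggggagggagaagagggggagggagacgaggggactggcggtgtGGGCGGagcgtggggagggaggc

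The 210 bases before MSRB3 hold no GC box, no such E-box and 16 CG pairs. They have repeated gagga stretches, and gagga also occurs before MSRB2. The 123 bases before MSRB1 hold 2 GC boxes, no E-box and 7 CG pairs. The 177 bases before MSRB2 hold 2 GC boxes, 1 E-box and 5 CG pairs. How common gagga and CG pairs are in the other windows was not tested. Of all 35116 RefSeq windows cut to 210 bases, 37.2% hold a GC box and 15.4% an E-box. At 123 bases the shares are 21.1% and 9.59%, and at 177 bases 30.8% and 13.5%. All 3 stretches are rich in G and C (72.4% for MSRB3, 69.1% for MSRB1 and 70.6% for MSRB2). The matches are a description of these letters only.

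The genes that act with the reductases are given by lists, each beside the counted genes as a whole, whose median ratio was -0.03. Of the counted genes as a whole, 92.9% were within 2-fold, 4.61% at least 2-fold lower and 2.47% at least 2-fold higher. A short list with all or nearly all genes within 2-fold is therefore near the share of all genes. In the thioredoxin system, which supplies the electrons, all 8 counted genes were within 2-fold (median 0.04). TXN, the thioredoxin of the cytosol, had 15621 counts with vector and 13734 with PKP2, a ratio of 0.05. TXNRD1, the cytosolic thioredoxin reductase, had 41998 and 42038 counts, a ratio of 0.24. The farthest from 0 were NXN, the thioredoxin-like nucleoredoxin, at -0.79, TXNRD2, the mitochondrial reductase, at -0.63, TXNIP, a thioredoxin-binding inhibitor, at 0.41, and TXNRD3 at 0.39. Relative to the GC curve, NXN was at -0.49, TXNRD2 at -0.20, TXNIP at 0.30 and TXNRD3 at 0.36. TXN and TXNRD1, the most counted of the list, thus differed little.

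MICAL proteins oxidise methionines of actin, a reaction that MSRB enzymes reverse. All 3 MICAL genes were lower in the PKP2 library and within 2-fold (median -0.32, or 0.03 relative to the GC curve). MICAL2 had 206 and 117 counts, a ratio of -0.58 (-0.46 relative to the GC curve). MICAL1 had 515 and 351, a ratio of -0.32 (0.05), and MICAL3 1696 and 1230, a ratio of -0.23 (0.03). Of the enzymes that remove hydrogen peroxide and restore thiols, all 7 peroxiredoxin and sulfiredoxin genes were within 2-fold (median 0.05, or -0.03 relative to the GC curve). PRDX2 was at -0.72 (-0.47 relative to the GC curve), PRDX5 at -0.51 (-0.15) and PRDX1 at 0.07 (0.13). SRXN1, which repairs over-oxidised peroxiredoxins, was at 0.22 (0.33). All 12 counted genes of glutathione and glutaredoxin were within 2-fold as well (median 0.02, or -0.04 relative to the GC curve). Among them was GPX1, the cytosolic glutathione peroxidase, at 0.68 (1.16 and so past 2-fold relative to the GC curve). GPX4, which reduces lipid peroxides, was at -0.49 (-0.06), GLRX2 at 0.25 (0.06) and GPX8, a peroxidase of the endoplasmic reticulum, at 0.22 (-0.02). SOD1, the cytosolic superoxide dismutase, was at -0.17, while catalase (CAT) had only 2 and 0 counts.

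MSRB1 carries selenocysteine. Of 12 other counted selenoprotein genes (those of the thioredoxin and glutathione lists left out), 1 was at least 2-fold higher, none lower and 11 within 2-fold (median -0.18, or -0.02 relative to the GC curve). The higher one was SELENOF, a selenoprotein of the endoplasmic reticulum, with 699 counts with vector and 1419 with PKP2. Its ratio was 1.26 (interval 1.13 to 1.39), or 0.99 relative to the GC curve. SELENOO, a mitochondrial AMP transferase, was at -0.91 (-0.30 relative to the GC curve). SELENOH was at -0.41 (-0.27) and SELENOI, an enzyme of phospholipid synthesis, at 0.35 (0.12). All 7 genes that make or insert selenocysteine were within 2-fold (median 0.23, or 0.02 relative to the GC curve). PSTK, the kinase that phosphorylates seryl-tRNA for selenocysteine, was at 0.67 (0.69 relative to the GC curve). EEFSEC, the selenocysteine elongation factor, was at -0.55 (-0.20). SEPHS1 was at 0.44 (0.39) and SECISBP2, which binds the selenocysteine insertion element, at 0.23 (0.16).

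All 14 counted genes of the methionine cycle and salvage, which make and recycle the free amino acid, were within 2-fold (median 0.07, or -0.01 relative to the GC curve). CBS, which passes homocysteine on to cysteine synthesis, was at -0.68 (-0.39 relative to the GC curve), and the salvage isomerase gene MRI1 at -0.63 (-0.33). MTR, methionine synthase, was at 0.43 (0.34) and AHCYL2 at 0.32 (0.26). Oxidative folding in the endoplasmic reticulum, where one MSRB3 form resides, was represented by 18 genes, all within 2-fold (median 0.08). TMX4, a thioredoxin-like membrane protein, went from 21415 to 34850 counts, a ratio of 0.94. VKORC1L1 was at 0.47, its paralogue VKORC1, the target of warfarin, at -0.45 and TMX3 at 0.45. With the GC curve subtracted, TMX4 was at 0.78, VKORC1L1 at 0.33, VKORC1 at -0.17 and TMX3 at 0.17.

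MSRB3 has been described as a target of ZEB1, a transcription factor of the epithelial-mesenchymal transition (EMT). All 5 counted EMT factors were within 2-fold (median 0.21, or 0.06 relative to the GC curve). ZEB1 had 423 counts with vector and 590 with PKP2, a ratio of 0.72 (interval 0.53 to 0.90). ZEB2 had 1463 and 1921 counts, a ratio of 0.63. SNAI1 had 198 and 89 counts, a ratio of -0.92, and SNAI2 121 and 119, a ratio of 0.21. With the GC curve subtracted, ZEB1 was at 0.51, ZEB2 at 0.41, SNAI1 at -0.67 and SNAI2 at 0.06. ZEB1 and ZEB2 were thus higher and SNAI1 lower in the library in which MSRB3 was lower. A link between any of these factors and the level of MSRB3 was not tested.

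**Figure D4:**
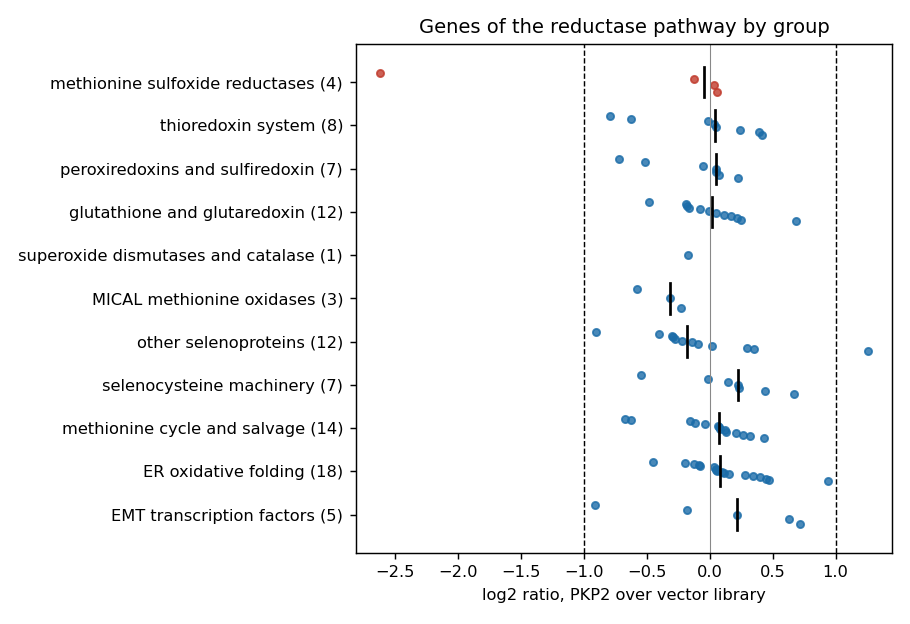
Log2 ratio of the PKP2 over the vector library for each counted gene of the family (red) and of 10 related lists (blue), with the number of genes in brackets, the list's median as a black bar (no bar for a list of 1 gene) and dashed lines at 2-fold. MSRB3, chosen for its low ratio, is the lowest point drawn at -2.62, and SELENOF at 1.26 is the one point above 2-fold.

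Some of these related genes share more sequence with other genes in the files than the family members do, or overlap another gene. The share of 31-base stretches also found in another gene of the files was 84.9% for SRXN1, 56.3% for CBS, 33.0% for VKORC1, 31.1% for PRDX1 and 20.3% for GPX1. The gene with the largest part of the shared stretches of GPX1 was the pseudogene GPX1P1. MRI1, MICAL1, MICAL3, SELENOH, VKORC1 and SRXN1 overlap exons of another gene on the same strand. TXNRD2, GLRX2, PRDX1, PRDX2, PSTK, EEFSEC, SELENOI, SELENOO, TMX3, ZEB1 and ZEB2 overlap one on the opposite strand.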

How the data were processed

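Total RNA of the 2 cultures was made into libraries with the TruSeq RNA kit, per the labels' protocols. Bowtie 0.12.2 and the builds GRCh37 and hg19 are named in the submitters' processing notes. How reads were counted, with which annotation and whether by strand, is not given in the sources used here. Per the file headers, the deposited values are counts, handled here as estimated counts, 1 for each Ensembl gene ID and without normalization by the authors. They were whole numbers, except in a damaged row, and nothing was rounded. In each file 2 rows without a readable gene count were left out.

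Library sizes were totals times edgeR 4.0.16 TMM factors (1.01 and 0.991; R 4.3.3), for scaling only, as 1 library per group allows no test and no p-value. Ratios of CPM had no pseudocount and exact binomial (Clopper-Pearson) 95% intervals. The interval of a CPM was exact Poisson, and that of a difference between ratios came from the conditional odds ratio. The call rule was 2-fold among genes averaging 10 counts or more. The APPRIS principal transcript of GENCODE 29, or the longest where none is marked, gave GC content and length, used by gene ID (99.4% of counted genes). The GC curve was a lowess fit (fraction 0.3, statsmodels 0.14.6) on genes averaging 100 counts or more. Symbols were matched for 22579 of 22965 IDs. The steps were tested on simulated counts.

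The named genes were the members, PKP2, up to 4 counted genes per list farthest from 0 and any past 2-fold, the neighbours of MSRB3 and the 3 genes on either side of it in ratio. TXN, TXNRD1, CAT and the neighbours of MSRB1 were added after their values were seen. List genes with no count were not analysed here, and 1 other list gene is not reported here. The members and lists were chosen with earlier results of these data known. Alternatives were other scalings, pseudocounts, count minimums and thresholds, and corrections for GC content and length. DESeq2 1.42.0 gave size factors only.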

Additional observations from a re-analysis of the deposited data

How the results depend on the processing

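The ratio of MSRB3 lay between -2.78 and -2.54 under every alternative run except 5 CPM added to both libraries (-2.03), which shrinks ratios of low levels by construction. The ratios of MSRA and MSRB2 stayed within their counting intervals under all alternatives run. With the GC curve subtracted, MSRB1 was at 0.30 and the sum of MSRA, MSRB1 and MSRB2 at 0.24, and with the 100 genes nearest in GC content and length subtracted, at 0.26 and 0.21. With no TMM factor the summed ratio was -0.01. Per kilobase the MSRB3 share of the family was 26.2% in the vector and 5.36% in the PKP2 library, and among the 3 MSRB genes alone its share in the vector library was 53.5%. Genes at least 2-fold higher numbered 395 and lower 737. These became 1858 and 2800 with no filter, 195 and 304 with a mean of at least 50 counts, 1098 and 2060 at 1.5-fold, 114 and 251 at 3-fold, 231 and 393 with 0.5 CPM added, and 106 and 81 with 5 CPM added. With the GC curve subtracted they were 374 and 555. Other scalings gave 377 and 802 with no TMM factor, 398 and 721 with DESeq2 size factors, and 401 and 704 with upper-quartile factors. The share of higher genes among all past 2-fold was 34.9%, against 56.7% when 5 CPM were added. No paired analysis was possible because each group has 1 library, and for the same reason no library could be left out. Depth limits MSRA and MSRB2, at about 100 counts each, the most.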
